A study of Oryza sativa with 12 samples.

Results

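Rice roots take phosphate (Pi) up through the PHT1 carriers and pass it on to the xylem through the PHO1 exporters. Transcript levels are described here for 8 of these genes: the importers PT1, PT2, PT4, PT6, and PT8, and the exporters PHO1;1, PHO1;2, and PHO1;3. The genes were picked by family and name, not by a measured value, although earlier results of these data were known. All 8 were found, among 41620 genes in the expression table. Roots came from 3-wk-old seedlings of rice cultivar Nipponbare (WT) and of Os1400-12SIII, a CRISPR/Cas9 line with a disrupted Os1400. Os1400, a MAX1 cytochrome P450, acts in the synthesis of strigolactones, plant hormones that roots also release as signals. All seedlings spent 2 wk in hydroponic solution that held 0.4 mM (+Pi) or 0.004 mM (low-Pi) phosphate, so that the groups were WT +Pi, Os1400 +Pi, WT low-Pi, and Os1400 low-Pi, with 3 libraries each. A single Os1400 line was sequenced, and no label says which libraries came from separate plants or pools, so that p-values measure only the spread between these samples.

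PHT1 proteins are proton-coupled carriers of the plasma membrane. PHO1 proteins carry an SPX domain, which senses Pi status through inositol pyrophosphates, and an EXS domain, which belongs to the export function. In Pi-starved rice, the transcription factor PHR2 activates starvation genes, SPX proteins hold PHR2 back when Pi is ample, and the ubiquitin-conjugating enzyme PHO2 promotes the loss of transporter proteins. The comparisons ask how Pi supply moved these genes in each genotype, and whether the mutant differed from WT at either supply.

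Levels are given in FPKM, in which fragment counts are scaled to gene length and to library size, so that genes can be set side by side. The deposited table annotates the 5 importers with the sugar and other transporter domain and the 3 exporters with both SPX and EXS domains. Positions are those of the deposited table, which names no genome build. PT1 (Os03g0150600) lies on chromosome 3 from 2807616 to 2809540 and PT2 (Os03g0150800) on the same minus strand from 2815502 to 2817322, with 5961 bp between them. PT4 (Os04g0186400) lies on chromosome 4 from 5846286 to 5849272, and PT6 (Os08g0564000) on chromosome 8 from 28244202 to 28246028, both on the plus strand. PT8 (Os10g0444700) spans 16035405 to 16038231 of chromosome 10, minus strand, and is separated from PT3 by 6290 bp. PHO1;1 (Os01g0110100) is on chromosome 1 from 537710 to 543354, PHO1;2 (Os02g0809800) on chromosome 2 from 34609725 to 34615015, and PHO1;3 (Os06g0493600) on chromosome 6 from 17130109 to 17134973, all on the plus strand. All are whole-gene values, and whether the counting used strand is not given in the sources used here. Reads shared between PHT1 paralogs, or taken from an antisense transcript such as the one known at PHO1;2 in rice, could therefore not be told apart from the gene's own.

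The low-Pi WT libraries stood apart from the rest, with 17711 to 22077 genes holding a count against 27191 to 30375 in the other 9 libraries. Total counts were 28271749 to 32613875 per low-Pi WT library and 29596562 to 41078078 in the others, and 3 counts corresponded to 0.073 to 0.106 CPM. Of the 6 root markers, RCc3, Lsi1, and Lsi2 were above 100 FPKM in all libraries, NRT2.1 was at or near 0 in all 12, NAR2.1 was at 0 in WT low-Pi replicates 1 and 2, and IRT1 did not exceed 2.27 FPKM. The summed level of these markers was 3850 to 4320 FPKM in WT +Pi, 3490 to 3640 in Os1400 +Pi, and 2200 to 3580 in Os1400 low-Pi. In WT low-Pi, it was 2340, 2040, and 8100 FPKM in replicates 1, 2, and 3. The 4 green shoot markers summed to 0 to 10.5 FPKM over the 12 libraries. The mutated gene, Os01g0701400, was listed at 0 FPKM in WT and in Os1400 alike, so that its level does not check the genotype labels.

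**Figure D1:**
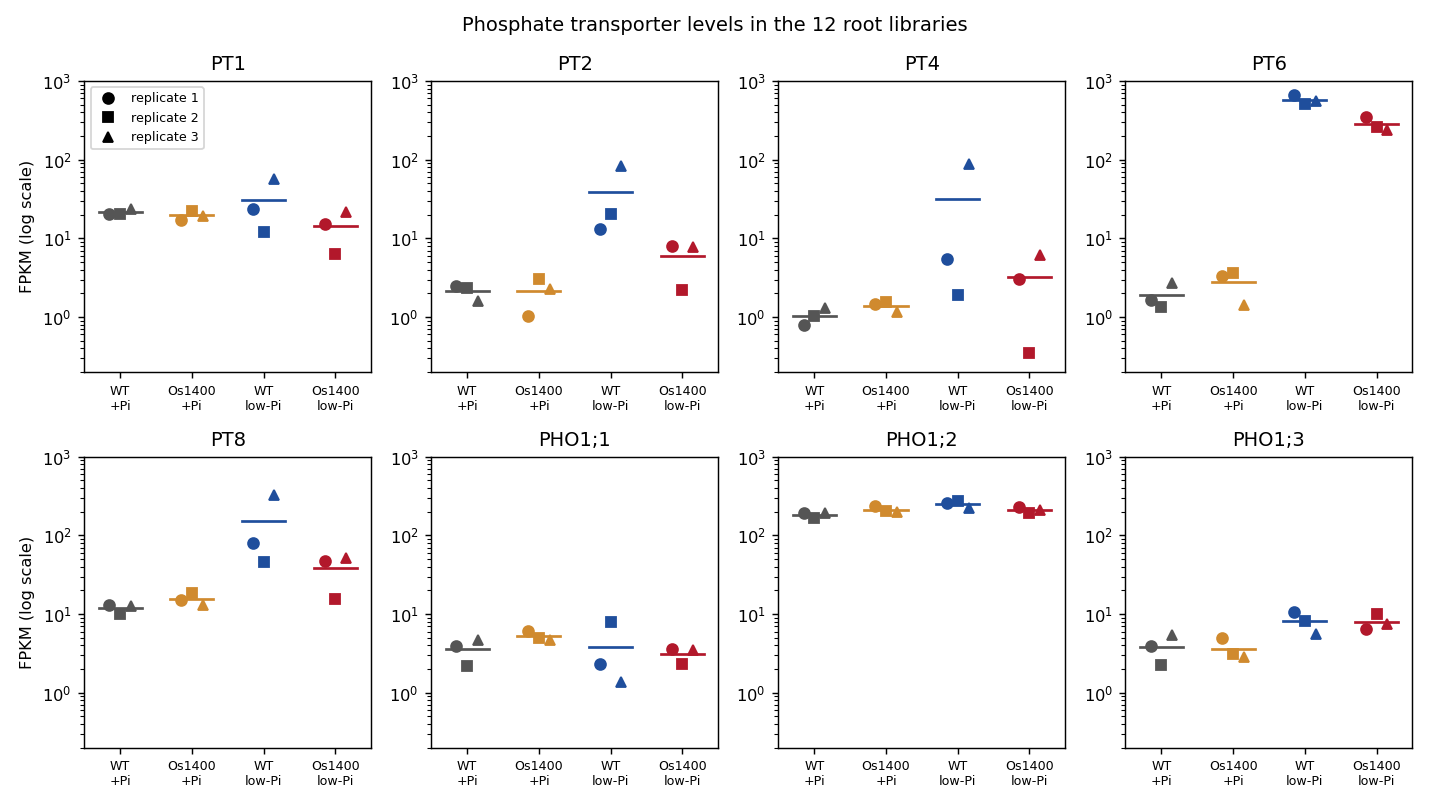
FPKM (log scale) of the 8 transporter genes in each of the 12 libraries, grouped by genotype and Pi supply, with circles, squares, and triangles for replicates 1, 2, and 3 and a line at the mean of 3 libraries. PT6 separates the 6 low-Pi libraries (238 to 660 FPKM) from the 6 +Pi libraries (1.36 to 3.62 FPKM), whereas PHO1;2 stays between 165 and 272 FPKM throughout.

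PT6, a high-affinity importer of the root, carried the largest response to Pi supply among the 8 genes in both genotypes. It was at 1.66, 1.36, and 2.67 FPKM in the 3 WT +Pi libraries and at 660, 512, and 561 FPKM in the 3 WT low-Pi libraries. In Os1400, it was at 3.28, 3.62, and 1.40 FPKM at +Pi and at 347, 262, and 238 FPKM at low-Pi. Each low-Pi library was therefore above each +Pi library, in WT as in Os1400. In edgeR's quasi-likelihood test, with p-values adjusted over all genes tested, PT6 rose 295-fold in WT (log2 fold change 8.21, SE 0.37, adjusted p = 0.00163) and 110-fold in Os1400 (6.78, SE 0.36, adjusted p = 3.9e-06). Only 15 of 25163 genes tested in WT, and 52 of 27647 tested in Os1400, had a higher log2 fold change. By mean FPKM, PT6 moved from place 19818 to place 280 of all genes in WT, and from place 18420 to place 397 in Os1400.

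At low-Pi, PT6 was lower in Os1400 than in WT. The WT libraries held 512 to 660 FPKM (577 ± 75.2, SD, n = 3) and the Os1400 libraries held 238 to 347 FPKM (282 ± 57.5, SD, n = 3), with no overlap. In edgeR's test, PT6 fell by 0.96 on the log2 scale (SE 0.23, adjusted p = 0.0327), and it was the only 1 of the 8 genes called (FDR of 0.05 or less). In the background, 16.9% of the 25426 genes tested were called, and 4.47% were called lower. The call rested on few libraries. It was kept without WT low-Pi replicate 2 (adjusted p = 0.0421) or 3 (0.0354) and lost without WT low-Pi replicate 1 (0.0629), Os1400 low-Pi replicate 1 (0.0814), 2 (0.137), or 3 (0.137), while the log2 difference of PT6 stayed between −0.83 and −1.13. It was also lost without a filter on low counts (adjusted p = 0.0539), in the fit of all 12 libraries (0.052), and with total counts only (0.107). Without Os1400 low-Pi replicate 1, and likewise without replicate 3, edgeR called 0 of all genes.

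PT8, a high-affinity importer expressed in many tissues, rose at low-Pi in both genotypes. Its levels in WT were 13.0, 9.91, and 12.7 FPKM at +Pi and 80.4, 45.8, and 328 FPKM at low-Pi. In Os1400, they were 15.1, 18.6, and 12.9 FPKM at +Pi and 47.9, 15.6, and 51.8 FPKM at low-Pi. All WT low-Pi libraries lay above all WT +Pi libraries, whereas Os1400 low-Pi replicate 2 lay within the +Pi range. In edgeR's test, the log2 fold change of PT8 was 3.62 in WT (SE 0.77, adjusted p = 0.0173) and 1.40 in Os1400 (SE 0.36, adjusted p = 0.0155). In WT, PT8 was not called without any 1 of the +Pi libraries (adjusted p = 0.0712 to 0.0738), and its log2 fold change dropped to 2.34 without WT low-Pi replicate 3. In Os1400, the call was lost without +Pi replicate 3 (adjusted p = 0.059) or without low-Pi replicate 1 (0.07), in the fit of all 12 libraries (0.232), and in limma on log2(FPKM + 1) (0.062).

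PT2, a low-affinity carrier of the root stele that serves the movement of Pi to the shoot, also rose at low-Pi in both genotypes. It was at 2.46, 2.36, and 1.59 FPKM in WT +Pi and at 13.2, 20.5, and 83.9 FPKM in WT low-Pi. In Os1400, it was at 1.02, 3.08, and 2.27 FPKM at +Pi and at 8.07, 2.19, and 7.82 FPKM at low-Pi. WT replicate 3 was the highest of the low-Pi libraries, and Os1400 replicate 2 was the lowest and overlapped the +Pi range. In edgeR's test, PT2 had a log2 fold change of 4.14 in WT (SE 0.79, adjusted p = 0.0151) and of 1.60 in Os1400 (SE 0.51, adjusted p = 0.0408). The WT call was lost without any 1 of the WT +Pi libraries (adjusted p = 0.0554 to 0.0638) and kept without WT low-Pi replicate 3, where the log2 fold change of PT2 was 2.93. Without a WT +Pi library, that of PT2 was 3.963 to 4.255, while calls over all genes fell from 5962 to between 1830 and 3570. The Os1400 call was lost without +Pi replicate 1 (0.108) or 3 (0.0908) and without low-Pi replicate 1 (0.157) or 3 (0.11), and also in the fit of all 12 libraries (0.229) and in limma on log2(FPKM + 1) (0.0841).

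PT4, an importer with a part in Pi uptake by the root, varied most between libraries of 1 group. It was at 0.80 to 1.31 FPKM in WT +Pi and at 1.16 to 1.54 FPKM in Os1400 +Pi. At low-Pi, it was at 5.46, 1.93, and 87.7 FPKM in WT and at 3.05, 0.348, and 6.16 FPKM in Os1400. WT low-Pi replicate 3 lay far above the other 2, with a mean of 31.7 FPKM over the group (SD 48.6, n = 3), and Os1400 low-Pi replicate 2 was below every +Pi library. The log2 fold change of PT4 was 4.87 in WT (SE 1.49, adjusted p = 0.0625 in edgeR's test) and 1.29 in Os1400 (SE 0.71, adjusted p = 0.209), and neither was called in that test. In WT, PT4 was called by DESeq2 (4.89, adjusted p = 0.00022), in the fit of all 12 libraries (0.0156), and with at least 10 counts in every library (0.0212). Without WT low-Pi replicate 3, the WT value was 1.74 (adjusted p = 0.101 in edgeR). The WT value was also called without WT low-Pi replicate 1 (adjusted p = 0.0481) or 2 (0.0309), and the Os1400 value was called without Os1400 low-Pi replicate 2 (1.83, adjusted p = 0.00162).

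PT1, the importer known for steady expression where Pi is ample, did not pass the test in any comparison. It was at 20.4, 20.2, and 23.7 FPKM in WT +Pi and at 17.1, 22.4, and 19.3 FPKM in Os1400 +Pi. At low-Pi, its level was 23.3, 12.1, and 57.4 FPKM in WT and 15.4, 6.29, and 21.8 FPKM in Os1400. The 4 groups overlapped, and the spread was wider at low-Pi than at +Pi. The log2 fold change of PT1 with low-Pi was 0.47 in WT (SE 0.53, adjusted p = 0.632) and −0.34 in Os1400 (SE 0.34, adjusted p = 0.51) in edgeR's test. Without WT low-Pi replicate 3, the WT value turned to −0.35.

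The makeup of PHT1 transcripts differed between the Pi supplies. PT1 held 53.0% to 57.9% of the summed FPKM of 13 PHT1 genes in the WT +Pi libraries and 44.4% to 51.5% in the Os1400 +Pi libraries, followed by PT8 with 28.5% to 39.3% over both groups. At low-Pi, PT6 held 80.9%, 82.5%, and 40.8% in WT replicates 1, 2, and 3, and 78.8%, 89.1%, and 67.1% in the Os1400 replicates, while PT1 held 1.95% to 6.14% over the 6 libraries. The summed FPKM was 34.8 to 50.4 in the 6 +Pi libraries. It was 816, 621, and 1370 in the WT low-Pi libraries and 441, 294, and 355 in the Os1400 low-Pi libraries, so that each WT value was above each Os1400 value.

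**Figure D2:**
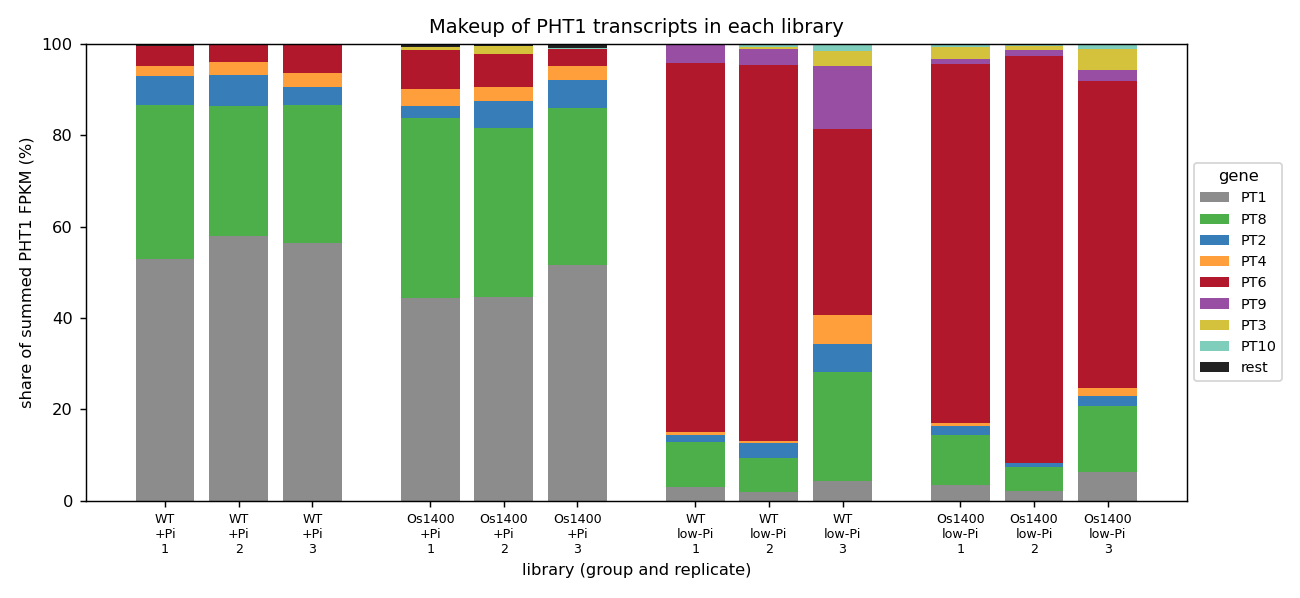
Share of the summed FPKM of 13 PHT1 genes (%) held by each gene in each of the 12 libraries, as stacked bars, with 5 genes of very low level pooled as rest. PT1 and PT8 make up most of each +Pi bar, and PT6 makes up 40.8% to 89.1% of each low-Pi bar.

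PHO1;2, the exporter that loads Pi into the xylem, had the highest mean level of the 8 genes at +Pi and came after PT6 at low-Pi. It was at 190, 165, and 195 FPKM in WT +Pi, at 238, 205, and 197 FPKM in Os1400 +Pi, at 260, 272, and 224 FPKM in WT low-Pi, and at 232, 195, and 208 FPKM in Os1400 low-Pi. The WT libraries did not overlap between the Pi supplies, whereas the Os1400 libraries did. In edgeR's test, the log2 fold change of PHO1;2 with low-Pi was 0.41 in WT (SE 0.17, adjusted p = 0.15) and 0.09 in Os1400 (SE 0.13, adjusted p = 0.648), and neither was called. The WT value of PHO1;2 was called without WT low-Pi replicate 3 (0.48, adjusted p = 0.0407) and by DESeq2 (0.44, adjusted p = 0.0174).

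PHO1;3, another exporter of the family, rose at low-Pi in Os1400. Its levels were 4.94, 3.07, and 2.85 FPKM in Os1400 +Pi and 6.50, 10.1, and 7.42 FPKM in Os1400 low-Pi, without overlap. In WT, they were 3.96, 2.29, and 5.35 FPKM at +Pi and 10.7, 8.10, and 5.62 FPKM at low-Pi, likewise without overlap. The log2 fold change of PHO1;3 was 1.25 in Os1400 (SE 0.26, adjusted p = 0.00514 in edgeR's test) and 1.03 in WT (SE 0.46, adjusted p = 0.177). The Os1400 call was kept without any single library and lost in the fit of all 12 libraries (adjusted p = 0.0735).

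PHO1;1, a further family member, was called in no comparison by edgeR's test. It was at 3.92, 2.17, and 4.70 FPKM in WT +Pi, at 6.07, 5.03, and 4.70 FPKM in Os1400 +Pi, at 2.32, 7.88, and 1.37 FPKM in WT low-Pi, and at 3.56, 2.30, and 3.502 FPKM in Os1400 low-Pi. In Os1400, each low-Pi library was below each +Pi library, while WT low-Pi held both the highest and the lowest value of the 12. The log2 fold change of PHO1;1 was −0.66 in Os1400 (SE 0.23, adjusted p = 0.0555 in edgeR's test) and 0.08 in WT (SE 0.80, adjusted p = 0.965). The Os1400 value of PHO1;1 passed the threshold in 6 of 18 alternatives, namely DESeq2 (adjusted p = 0.0456), upper-quartile scaling (0.0431), at least 10 counts in every library (0.0451), limma on log2(FPKM + 1) (0.0459) and on log2(FPKM + 0.1) (0.0485), and total counts only (0.0318).

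Counted over the 8 genes, 3 rose with low-Pi in WT (PT2, PT6, and PT8), 0 fell, and 5 were not called, where 23.7% of all 25163 genes tested were called and 8.46% were called higher. In Os1400, 4 rose (PT2, PT6, PT8, and PHO1;3), 0 fell, and 4 were not called, where 29.6% of 27647 genes were called and 15.6% were called higher. The median log2 fold change of the 8 genes was 2.32 in WT, against −0.28 over all genes, and 1.27 in Os1400, against −0.003 over all genes. The 2 comparisons share no library, and the Os1400 comparison holds none of the low-Pi WT libraries that stood apart. In bulk RNA, fewer cells of a type and less RNA of the gene per cell cannot be told apart.

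**Figure D3:**
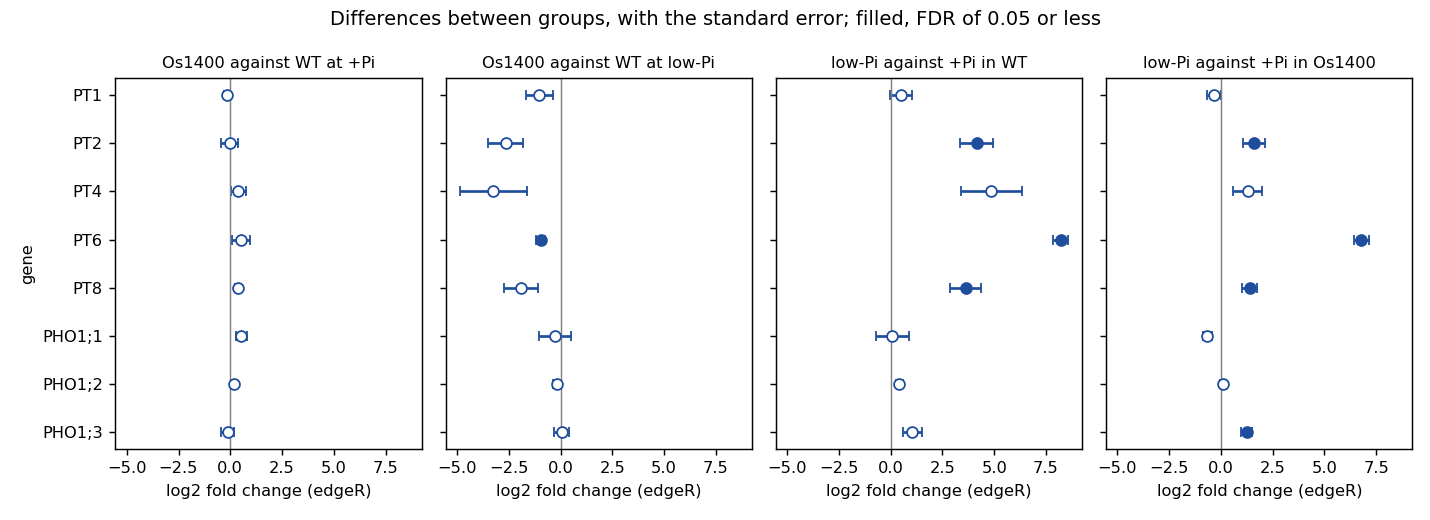
Log2 fold change of each of the 8 genes with its standard error in edgeR's quasi-likelihood test, in 4 panels for the comparisons of genotype and of Pi supply, with filled circles at an FDR of 0.05 or less. PT6 is the only filled circle in the comparison of genotypes at low-Pi (−0.96), and no circle is filled at +Pi.

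At +Pi, edgeR's test called 0 of the 8 genes between the genotypes in either direction, where 0.958% of 27777 genes tested were called. DESeq2 and limma called 0 as well. With so small a share called over all genes, a count of 0 says little about these 8 in particular. At an unadjusted p under 0.05, 1 of the 8 genes passed, where 2797 of all 27777 genes tested passed. This gene was PT8, with 9.91 to 13.0 FPKM in WT and 12.9 to 18.6 FPKM in Os1400 (log2 fold change 0.37, SE 0.16, adjusted p = 0.453). The other log2 fold changes lay between −0.15 for PT1 and 0.53 for PHO1;1. The libraries of both genotypes overlapped for each of these genes except PHO1;2, with 165 to 195 FPKM in WT and 197 to 238 FPKM in Os1400 (log2 fold change 0.20, SE 0.10, adjusted p = 0.561), and PHO1;1, whose ranges met at 4.70 FPKM (adjusted p = 0.544).

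At low-Pi, apart from PT6, the importers had lower means in Os1400, with differences that did not pass the test. The log2 fold change of Os1400 against WT was −2.64 for PT2 (SE 0.85, adjusted p = 0.0919), −3.26 for PT4 (SE 1.62, adjusted p = 0.271), −1.91 for PT8 (SE 0.82, adjusted p = 0.197), and −1.03 for PT1 (SE 0.66, adjusted p = 0.41) in edgeR's test. For PT2, each Os1400 library was below each WT library. PT2 was called by DESeq2 (adjusted p = 0.00833), with at least 10 counts in every library (0.0446), and in the fit of all 12 libraries (0.0201), and PT8 only in the last of these (0.0443). For PT1, PT4, and PT8, the genotypes overlapped. Without WT low-Pi replicate 3, these log2 values became −1.44 for PT2, −0.15 for PT4, −0.65 for PT8, and −0.22 for PT1. For the exporters, the log2 fold change was −0.26 for PHO1;1, −0.18 for PHO1;2, and 0.05 for PHO1;3, each smaller than its standard error. The median of the 8 genes was −0.99, against 0.22 over all genes. That median over all genes was 0.11 with upper-quartile scaling and 0.48 with total counts only, and relative to it PT6 lay between −1.18 and −1.19 under each scaling.

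The test of the difference itself, the interaction of genotype and Pi supply over all 12 libraries, called 0 of the 8 genes in edgeR, where 13.4% of 28691 genes tested were called. At an unadjusted p under 0.05, 3 of the 8 passed, where 7797 of all 28691 genes tested passed. Their log2 interaction was −1.44 for PT6 (SE 0.47, adjusted p = 0.0681), −2.56 for PT2 (SE 0.98, adjusted p = 0.115), and −2.23 for PT8 (SE 0.86, adjusted p = 0.121). All 3 were called by DESeq2 (adjusted p = 0.0117 for PT6, 0.0369 for PT2, and 0.0348 for PT8), and PT6 was called by limma on log2(FPKM + 1) (adjusted p = 0.0363). Single libraries moved the edgeR call as well. PT6 was called without WT +Pi replicate 3 (adjusted p = 0.0396) or Os1400 +Pi replicate 3 (0.0176), PT2 without WT low-Pi replicate 1 (0.0368), and PT8 without WT low-Pi replicate 2 (0.0275). Without WT low-Pi replicate 3, the log2 interaction was −1.48 for PT6, −1.39 for PT2, and −0.996 for PT8. A smaller rise of PT6, PT2, or PT8 in Os1400 than in WT was thus not called by the edgeR test of all libraries.

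Among the 6 low-Pi libraries, several importers and root silicon transporters varied together. PT1, PT2, PT4, and PT8 were each highest in WT replicate 3 and lowest in Os1400 replicate 2, and PT9 and PT10 had the same highest and lowest library. The silicon influx carrier Lsi1 was at 719, 507, and 4395 FPKM in the WT low-Pi replicates and at 396, 180, and 500 FPKM in the Os1400 low-Pi replicates, again with these 2 libraries at the ends. The silicon efflux carrier Lsi2 was at 258, 155, and 926 FPKM in WT and at 271, 122.6, and 333 FPKM in Os1400. Within each genotype, PT1, PT4, PT8, PT9, Lsi1, and Lsi2 were lowest in replicate 2 and highest in replicate 3. PT2 and PT10 held this order in neither genotype or in only 1, and its cause was not tested. PT6 did not follow that order, since it was highest in WT replicate 1 and lowest in Os1400 replicate 3. Nor did RCc3, the other root marker above 100 FPKM in all libraries. It was at 1360 to 2740 FPKM in WT low-Pi and at 1890 to 2890 FPKM in Os1400 low-Pi. WT replicate 3 and Os1400 replicate 2 were also left out together, a choice made after seeing the values. The low-Pi log2 difference between the genotypes was then −0.95 for PT6 (adjusted p = 0.115), −1.05 for PT2 (adjusted p = 0.157), −0.29 for PT8 (adjusted p = 0.639), 0.12 for PT1 (adjusted p = 0.907), and 0.37 for PT4 (adjusted p = 0.836) in edgeR's test. For PT1, PT2, PT4, and PT8, this refit lacked the highest WT and the lowest Os1400 library. A smaller excess of WT over Os1400 was thus fixed in advance for these genes, and no conclusion is drawn from it. The part of root cell makeup in the transporter differences was not tested.

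**Figure D4:**
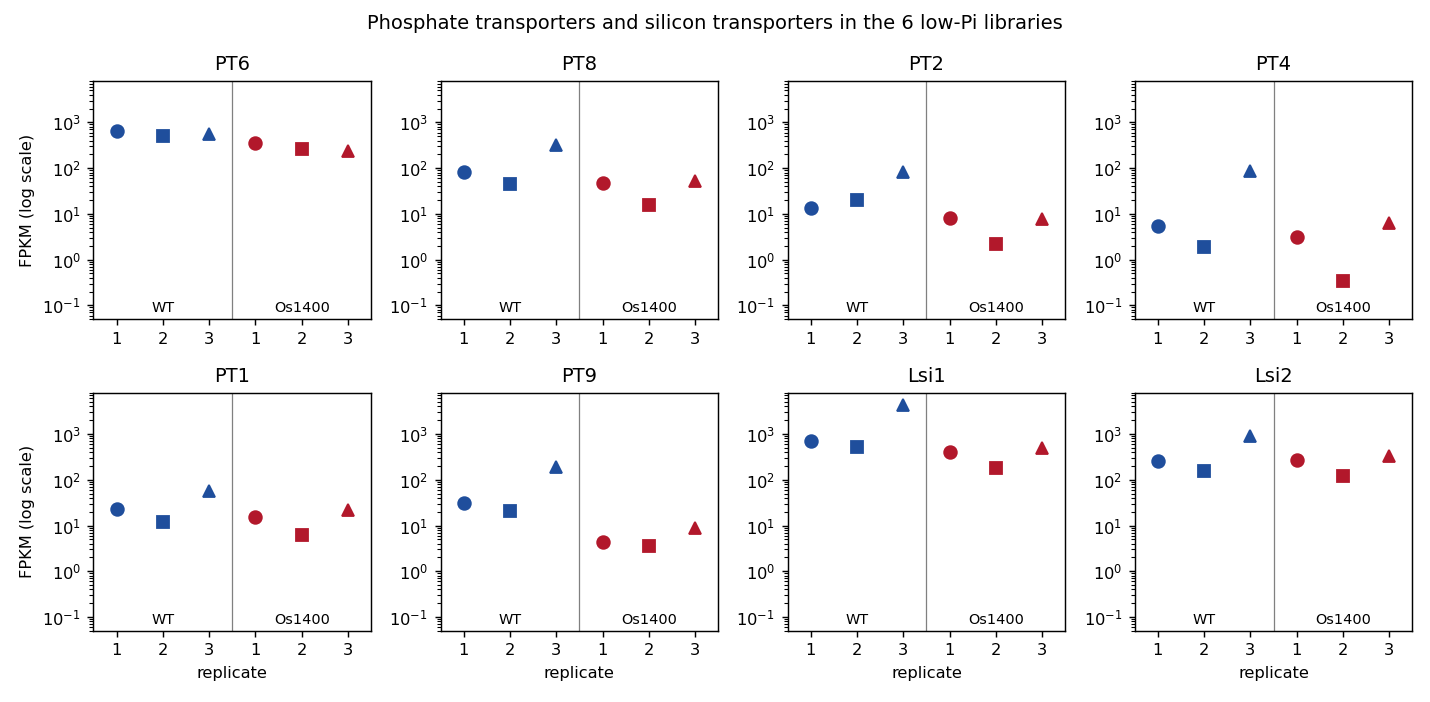
FPKM (log scale) of 6 PHT1 importers and of the silicon transporters Lsi1 and Lsi2 in the 6 low-Pi libraries, with WT replicates on the left and Os1400 replicates on the right of each panel. PT8, PT2, PT4, PT1, and PT9 peak in WT replicate 3 as Lsi1 (4395 FPKM) does, whereas PT6 is between 512 and 660 FPKM in all 3 WT libraries.

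The other 8 PHT1 genes were mostly silent. PT3, PT9, and PT10 exceeded a mean of 1 FPKM in a group, and only at low-Pi. PT9, a high-affinity importer of the root, was listed at 0 in all 6 +Pi libraries and was at 31.7, 21.3, and 190 FPKM in WT low-Pi and at 4.46, 3.56, and 8.73 FPKM in Os1400 low-Pi. Set against 3 counts per +Pi library, the mean of PT9 at low-Pi was at least 1260-fold higher in WT and at least 120-fold higher in Os1400. These bounds are for the mean of 3 libraries, and WT low-Pi replicate 3 raised the WT mean. At low-Pi, PT9 was lower in each Os1400 library than in each WT library (log2 fold change −3.79, SE 0.95, adjusted p = 0.0403 in edgeR's test). The PT9 call was lost without any 1 of the Os1400 low-Pi libraries (adjusted p = 0.0947 to 0.151) and without a filter on low counts (0.0634), and the log2 value of PT9 was −2.18 without WT low-Pi replicate 3. PT10, the neighbor of PT9 at a distance of 10175 bp, was at 2.18, 2.81, and 21.2 FPKM in WT low-Pi and at 3.31, 1.46, and 3.81 FPKM in Os1400 low-Pi, and at most at 0.11 FPKM at +Pi. PT10 rose in both genotypes (adjusted p = 0.0178 in WT and 0.00134 in Os1400 in edgeR's test). Its mean in WT low-Pi, again raised by replicate 3, was at least 154-fold higher against 3 counts per +Pi library. The WT call of PT10 was lost without any 1 of the WT +Pi libraries (adjusted p = 0.0507 to 0.0579). Calls over all genes fell in these fits too, from 5962 to between 1830 and 3570. PT3, the neighbor of PT8, was at 0, 2.51, and 44.0 FPKM in WT low-Pi and at 11.4, 2.45, and 16.4 FPKM in Os1400 low-Pi, with 0 to 0.89 FPKM at +Pi, and it rose in Os1400 (log2 fold change 4.75, SE 0.997, adjusted p = 0.00558), a call that was lost in the fit of all 12 libraries (adjusted p = 0.28). PT11, the carrier of mycorrhizal roots, held at most 0.101% of the PHT1 sum in any library.

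Of the 19 genes listed for Pi signalling, 17 were tested for the response to Pi supply, and IPS1 was not analysed here. In Os1400, 10 rose and 5 fell with low-Pi, where 29.6% of all genes tested were called and 15.6% were called higher. In WT, 7 rose and 4 fell, where 23.7% were called and 8.46% were called higher. SPX1, an inhibitor of PHR2, was at 13.5, 14.1, and 18.7 FPKM in WT +Pi and at 657, 480, and 820 FPKM in WT low-Pi. In Os1400, it was at 15.5, 8.76, and 10.5 FPKM at +Pi and at 182, 155, and 159 FPKM at low-Pi. SPX1 thus rose in both genotypes, by 5.36 on the log2 scale in WT (SE 0.29, adjusted p = 0.00241) and by 3.94 in Os1400 (SE 0.22, adjusted p = 4.41e-06 in edgeR's test), and at low-Pi it was lower in each Os1400 library than in each WT library (log2 fold change −1.90, SE 0.24, adjusted p = 0.0184). That call was lost without Os1400 low-Pi replicate 1 (adjusted p = 0.0544) or 3 (0.0563), where edgeR called 0 of all genes. The log2 value of SPX1 was −1.97 and −1.85 in these fits. The interaction was called for SPX1 (−1.43, SE 0.33, adjusted p = 0.0154) and remained so without any single library.

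PHO2 fell at low-Pi in both genotypes. It was at 164, 140, and 161 FPKM in WT +Pi and at 4.74, 18.2, and 11.4 FPKM in WT low-Pi, and in Os1400 it was at 152, 140, and 145 FPKM at +Pi and at 39.8, 31.8, and 39.2 FPKM at low-Pi. Its log2 fold change was −3.79 in WT (SE 0.52, adjusted p = 0.00839) and −1.88 in Os1400 (SE 0.13, adjusted p = 1.04e-05 in edgeR's test). At low-Pi, PHO2 was higher in each Os1400 library than in each WT library, a difference of 1.74 (SE 0.48) that missed the threshold in edgeR's test (adjusted p = 0.0575). That difference passed in 8 of 18 alternatives, among them DESeq2 (adjusted p = 0.00578), the fit of all 12 libraries (0.00493), at least 10 counts in every library (0.0329), limma on log2(FPKM + 1) (0.0397), total counts only (0.0431), and edgeR without WT low-Pi replicate 1 (0.0386) or 2 (0.0274). The interaction was called for PHO2 (1.89, SE 0.51, adjusted p = 0.0319), and it was lost without any 1 of the +Pi libraries or of the Os1400 low-Pi libraries (adjusted p = 0.0514 to 0.0809).

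**Figure D5:**
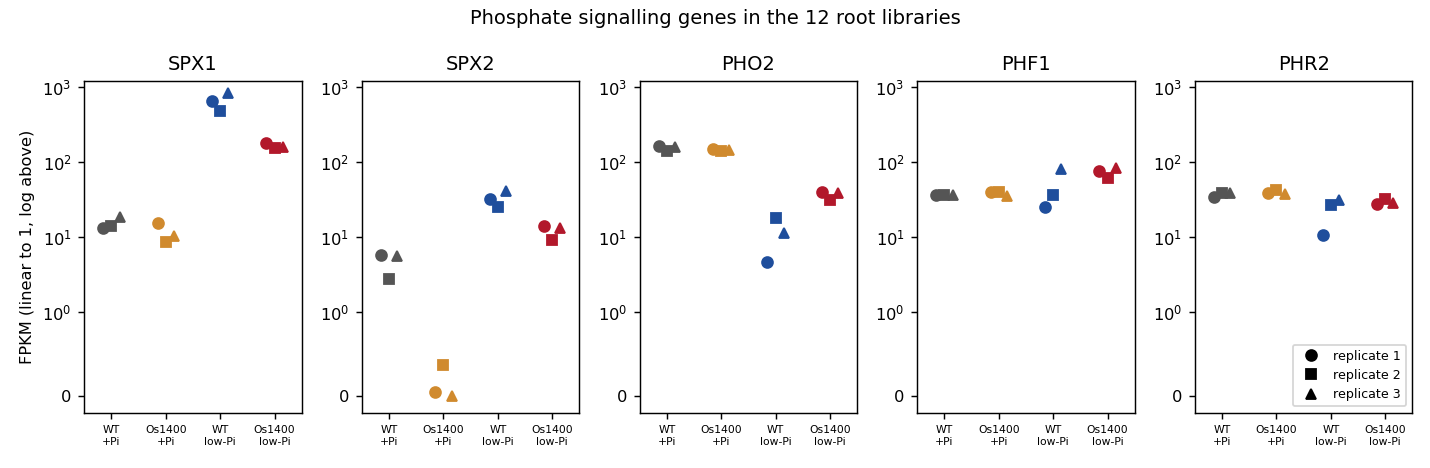
FPKM of SPX1, SPX2, PHO2, PHF1, and PHR2 in the 12 libraries by group, on an axis that is linear up to 1 FPKM and logarithmic above, with the replicate as marker shape. SPX1 and SPX2 are highest in WT low-Pi, PHO2 is lowest there (4.74 to 18.2 FPKM), and SPX2 is at 0 to 0.369 FPKM in Os1400 +Pi.

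SPX2, a further inhibitor of PHR2, was the only 1 of 16 signalling genes tested that was called between the genotypes at +Pi. It was at 5.74, 2.82, and 5.62 FPKM in WT +Pi and at 0.0433, 0.369, and 0 FPKM in Os1400 +Pi (2, 20, and 0 counts). The log2 fold change of SPX2 was −5.08 (SE 0.87, adjusted p = 0.0134 in edgeR's test). The call was lost without WT +Pi replicate 1 (adjusted p = 0.0844) or 3 (0.0885) and in the fit of all 12 libraries (0.103), and the value was −7.71 without Os1400 +Pi replicate 2. At low-Pi, SPX2 was at 32.1, 24.9, and 41.5 FPKM in WT and at 14.1, 9.30, and 13.4 FPKM in Os1400 (log2 fold change −1.35, SE 0.28, adjusted p = 0.0219), and that call was lost without any 1 of the Os1400 low-Pi libraries (adjusted p = 0.0782 to 0.0854), in the fit of all 12 libraries (0.213), and without a filter on low counts (0.0572).

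PHF1, which helps PHT1 proteins leave the endoplasmic reticulum, was at 35.1 to 39.8 FPKM in the 6 +Pi libraries, at 25.5, 37.0, and 81.7 FPKM in WT low-Pi, and at 77.2, 61.0, and 83.0 FPKM in Os1400 low-Pi. It rose in Os1400 (log2 fold change 1.05, SE 0.14, adjusted p = 0.000442 in edgeR's test), except in the fit of all 12 libraries (adjusted p = 0.0718), and was not called in WT (0.35, SE 0.42, adjusted p = 0.661). The interaction of PHF1 was not called (0.69, SE 0.46, adjusted p = 0.377), although it was called without WT low-Pi replicate 3 (1.27, adjusted p = 0.00452). PHR2, the activator itself, was at 34.8 to 41.97 FPKM at +Pi, at 10.8, 27.3, and 30.9 FPKM in WT low-Pi, and at 28.03, 31.9, and 28.8 FPKM in Os1400 low-Pi, and edgeR's test called it in no comparison. With low-Pi in Os1400, the log2 fold change of PHR2 (−0.31, adjusted p = 0.0777) passed in 5 of 18 alternatives, which were the limma fits (adjusted p = 0.0236 to 0.0247), total counts only (0.048), and edgeR without Os1400 low-Pi replicate 2 (0.0423).

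For each of the 8 genes, the genes of most similar pattern were found by the mean absolute difference of log2(CPM + 1) over the 12 libraries after centring, among 25724 genes. The nearest gene to PT6 was SPX5 (Os03g0406100), an SPX domain gene that is also in the signalling list, at a mean difference of 0.446, followed by the lipase-domain gene Os11g0658900 at 0.476, where PT6 itself deviated from its own mean by 3.62 on average. PT8 was nearest to the papain-type protease gene Os09g0381400 (0.254) and to the expansin gene Os10g0555700 (0.258). PT1 was nearest to Os05g0495900, named as a glucanase in the table (0.139), and to the aldehyde dehydrogenase gene Os01g0591300 (0.142). PT2 was nearest to the peroxidase gene Os03g0368000 (0.315) and to Os11g0654400 (0.35), and PT4 to the glycosyl hydrolase gene Os03g0201901 (0.328) and to Os02g0637000 (0.41). PHO1;2 was nearest to Os03g0333500 (0.092) and Os01g0375200 (0.102), PHO1;1 to Os04g0493300 (0.185) and Os07g0241800 (0.208), and PHO1;3 to the kinase gene Os09g0478500 (0.198) and to Os08g0387700 (0.202). The average deviation from the gene's own mean was 1.21 for PT8, 0.419 for PT1, 1.35 for PT2, and 1.25 for PT4. It was 0.159 for PHO1;2, 0.497 for PHO1;1, and 0.553 for PHO1;3. A small difference is easier to reach for a gene that varied little, such as PHO1;2.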

How the data were processed

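Root RNA was sequenced in 12 libraries, 3 per group. The submitters' processing notes name HISAT2 2.0.5, featureCounts 1.5.0-p3, and DESeq2, and the genome build is not given in the sources used here. The authors deposited counts, the whole numbers of fragments per gene before normalization, in a +Pi table (32722 genes) and a low-Pi table (31952 genes). A further deposited table holds FPKM, which the authors scaled from fragments by gene length and library size (41620 genes). The 28 columns of normalized values and group means in these tables were not used, nor were the authors' columns of fold changes and p-values.

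Counts were tested in R 4.3.3 with edgeR 4.0.16 (quasi-likelihood, TMM, filterByExpr with a minimum count of 10 and a total of 15, Benjamini-Hochberg adjustment, FDR of 0.05 or less). Genotypes were compared within each Pi supply, Pi supplies within each genotype, and the interaction over 12 libraries, the last 3 for the 30742 genes in both count tables. Alternatives were DESeq2 1.42.0, limma 3.58.1 on log2(FPKM + 1) or log2(FPKM + 0.1), other scalings and filters, a fit of all 12 libraries, a replicate block, and each library left out. The scripts were tested on simulated counts. Total counts of 28271749 to 41078078 per library set the precision at low values, and 3 counts served as the floor for genes at 0, which covers counting error only. No 2 libraries of the same group agreed within sampling noise.

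The 8 genes and the lists were chosen with earlier results of these data known. Named were the 8 genes, other PHT1 genes with a mean of at least 1 FPKM in a group, SPX1, SPX2, PHO2, PHF1, and PHR2 of 19 signalling genes, and the 2 genes nearest in pattern to each of the 8. Root markers (6) and green shoot markers (4) described the tissue.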

Additional observations from a re-analysis of the deposited data

Results flagged for a closer look

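Of 17 signalling genes tested for the interaction in edgeR over the 12 libraries, 5 were called with a positive value and 2 with a negative value. Over all genes tested, 13.4% were called. The 3 described here are those called among the signalling genes named in this report, and they were not chosen as the strongest of the list. For SPX1, the log2 interaction was −1.431 (SE 0.33, adjusted p = 0.0154), with a rise of 5.36 in WT and of 3.94 in Os1400, and the call was kept in each of the 24 alternatives run (adjusted p = 0.00037 to 0.0476). For PHO2, it was 1.888 (SE 0.51, adjusted p = 0.0319), and 11 of 24 alternatives lost the call. For SPX2, it was 3.77 (SE 1.12, adjusted p = 0.0476), with a log2 fold change of 2.75 in WT and of 6.52 in Os1400, and 14 of 23 alternatives lost the call. The SPX2 value was 6.37 without Os1400 +Pi replicate 2, since that group held 2, 20, and 0 counts, and 0.96 in limma on log2(FPKM + 1) (adjusted p = 0.18).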

How the results depend on the processing

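Of 760 values of the 8 genes under alternatives, 659 kept direction and side of the threshold, 32 lost and 30 gained a call, and 39 turned direction, the cause of which was not tested. Of the 621 values of the other named genes, these counts were 540, 51, 17, and 13. At +Pi, 0 of the 8 genes were called under all 17 alternatives, without single libraries included. Between the genotypes at low-Pi, 1 of the 8 genes was called, against 2 by DESeq2, 2 with at least 10 counts in every library, and 2 in the fit of all 12 libraries. That count was 0 without a filter on low counts and 0 with total counts only. It was also 0 with both WT low-Pi replicate 3 and Os1400 low-Pi replicate 2 left out, and 0 to 1 without single libraries. In WT, 3 were called with low-Pi, against 5 by DESeq2, 5 in the fit of all 12 libraries, and 1 to 4 without single libraries. In Os1400, 4 were called, against 1 in the fit of all 12 libraries, 2 in limma without a filter, and 2 to 5 without single libraries. For the interaction, 0 were called, against 3 by DESeq2, 1 with upper-quartile scaling, 1 with at least 10 counts in every library, 1 in limma on log2(FPKM + 1) with or without a filter, and 0 to 1 without single libraries.

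Between WT low-Pi and Os1400 low-Pi, correlations of same-numbered deviations were 0.002, 0.242, and 0.316 for replicates 1, 2, and 3. Whether replicate numbers pair the low-Pi samples can therefore not be told. For the other pairs of groups, the correlations lay between −0.059 and 0.08, without a sign of pairing. With the replicate block, 0 of the 8 genes were called between the genotypes at low-Pi (PT6 adjusted p = 0.0504) and 2 in Os1400 with low-Pi, where PT2 (adjusted p = 0.115) and PT8 (0.0538) lost the call, and SPX2 lost its call between the genotypes at low-Pi (0.0745). The log2 values turned to 0.188 for PHO1;1 and 0.975 for PT3 between the genotypes at low-Pi and to −0.344 for PHO1;1 in WT. No other count over the 8 genes moved with the block.

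Between the genotypes at low-Pi, further log2 values that turned were those of PHO1;3 (−0.086 with upper-quartile scaling, −0.003 in limma on log2(FPKM + 1) with or without a filter, −0.001 on log2(FPKM + 0.1), and −0.394 with both libraries left out), PHO1;1 (0.054 in limma on log2(FPKM + 0.1)), and PHO1;2 (0.053 with total counts only). So did PT1 (0.116), PT4 (0.368), PT10 (0.546), and PT3 (3.462) with both libraries left out, and PT3 in limma (0.744 on log2(FPKM + 1) with or without a filter, 1.796 on log2(FPKM + 0.1)). At +Pi, PT2 turned to 0.026 with total counts only. In WT, PHO1;1 turned to −0.117 in limma on log2(FPKM + 1) with or without a filter, to −0.211 on log2(FPKM + 0.1), and to −0.051 with total counts only. In Os1400, PHO1;2 turned to −0.009 in each limma fit. In the interaction, PHO1;3 turned to −0.006 with upper-quartile scaling and, with both libraries left out, PHO1;3 to −0.245, PT1 to 0.299, and PT4 to 0.02, while PT3 turned to 0.315 in limma on log2(FPKM + 1) with or without a filter and to 0.038 on log2(FPKM + 0.1).

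Without single libraries, values that turned ranged at +Pi from −0.386 to 0.3 for PT2, from −0.403 to 0.187 for PHO1;3, and from −0.015 to 0.071 for PHR2. At low-Pi between the genotypes, they ranged from −0.671 to 0.875 for PHO1;1, −0.178 to 0.287 for PHO1;3, −1.14 to 3.001 for PT3, and −1.998 to 0.248 for PT10. In WT, they ranged from −1.058 to 0.474 for PHO1;1, −0.348 to 0.835 for PT1, and −0.275 to 0.651 for PHF1, in Os1400 from −0.737 to 0.018 for PT1, and in the interaction from −1.178 to 0.366 for PHO1;1 and −0.108 to 0.491 for PHO1;3. Counts over all genes moved too, from 33 to 648 at +Pi, 0 to 7818 between the genotypes at low-Pi, 1830 to 9776 in WT, 2559 to 9184 in Os1400, and 2252 to 6658 for the interaction. The share of higher calls between the genotypes at low-Pi was 73.6% with TMM, 67.6% with upper-quartile scaling, and 84.1% with total counts only, and for the interaction it was 78.9%, 68.5%, and 85.3%. Total counts alone, the 2 libraries left out together, and genes without a row entered as 0 counts were alternatives chosen after seeing the data. Leaving out the 2 libraries was bound to lower the excess of low-Pi WT over Os1400 in PT1, PT2, PT4, PT8, and PT10.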
